A study of Rattus norvegicus with 9 samples.

Results

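The acyl-CoA thioesterases described here are Them5 and its relatives Them4, Acot1, Acot2, Acot4, Acot7, Acot8, Acot12 and Acot13, measured in rat lung. They were taken by gene symbol from the platform's probe annotation, with the probe of the highest mean standing for a gene. Of the 9 genes listed, 8 had a probe of their own among 14497 named genes and 28826 probes. Acot4 had none: its probe carries the symbols of both Acot4 and Acot3. Each of the 8 genes had 1 probe. The set was chosen by the measured difference of Them5, higher in metabolic syndrome in these same animals, so the group differences of the 8 genes are given as a description, with no test.

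The lungs came from 7 Wistar rats, 3 with metabolic syndrome (MetS) and 4 controls. From weaning the MetS animals had a 30% sucrose solution as their only drink for 24 weeks, and the controls had water. All ate the same standard chow, and all were fasted for 7 hours and decapitated. Sex is labelled (male) for the MetS animals alone, so sex and group cannot be told apart from the labels. RNA was measured on Affymetrix rat gene arrays, whose probes span the transcript. MetS animal 1 and control 1 each had 2 arrays, which makes 9 arrays for 7 animals. Values are log2 expression, so that a difference of 1 is a doubling; they are compared between animals for a gene and never between genes. In whole lung, fewer cells of a type and less RNA per cell cannot be told apart.

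Acyl-CoA thioesterases split a fatty acyl-CoA into a free fatty acid and coenzyme A, and so oppose the acyl-CoA synthetases that activate fatty acids. Acot1 and Acot2 act on long chains and are known targets of the nuclear receptor PPAR alpha. Acot1, Acot2 and Acot4 share the alpha/beta hydrolase fold, lie in a tandem cluster and act in the cytosol, mitochondria and peroxisomes respectively. The others have the hotdog fold. Them5 is a mitochondrial enzyme known for its part in the remodelling of cardiolipin, the phospholipid of the inner mitochondrial membrane, and Them4 is a related mitochondrial protein also known as a binding partner of the kinase Akt.

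The arrays had medians between 7.64 and 7.69. The SD over all probes of an animal lay between 1.88 and 1.93 in MetS and between 1.76 and 1.88 in controls, lowest in controls 2 and 3 at 1.77 and 1.76. Markers of alveolar epithelial cells differed little between animals. The mean of 9 alveolar type 2 markers lay between 12.42 and 12.52 in MetS and between 12.39 and 12.48 in controls. That of 8 alveolar type 1 markers lay between 12.63 and 12.75 in MetS and between 12.64 and 12.71 in controls. The mean of 7 alveolar macrophage markers varied more, between 9.13 and 9.69 in MetS and between 9.22 and 9.55 in controls, with a median difference of -0.01. Of 5 measured squamous and basal epithelium markers 2 were higher, of 8 adipocyte markers 2, and of 6 T and B lymphocyte markers 5. Their medians were -0.01, -0.05 and 0.08. All 4 measured red cell markers were higher in MetS, with a median difference of 0.39. At an unadjusted p under 0.05 (limma) 2 of them were higher, against 3.82% of all probes. Of 7 neutrophil markers 6 were higher, with a median of 0.22, as were all 5 measured ciliated cell markers, with a median of 0.14. Of 7 liver markers 6 were lower, with a median of -0.05. Of 5 measured airway secretory markers 1 was higher and 4 lower, with a median of -0.14. The widest difference was that of Scgb3a1, at -1.29 (SE 0.46), and the others lay between -0.31 and 0.07. In each gene of the red cell, neutrophil, ciliated, liver and airway secretory lists the groups overlapped. The part of any cell type in the results was not tested. The 7 measured heart muscle markers had a mean of 8.65 in MetS animal 1 and 9.67 in control 1, against 7.36 and 7.21 in MetS animals 2 and 3 and between 6.97 and 7.17 in controls 2 to 4.

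Them5 (probe 10817215) read 9.86, 9.01 and 10.14 in MetS animals 1 to 3 and 8.36, 8.59, 8.53 and 8.25 in controls 1 to 4. The controls lay close together, MetS animals 1 and 3 lay well above them and MetS animal 2 stood between, 0.42 above the highest control. The means were 9.67 ± 0.59 (SD, n = 3) and 8.43 ± 0.16 (SD, n = 4), a difference of 1.24 with a standard error (SE) of 0.25, or 2.36-fold. The spread among the MetS animals, a range of 1.13, was wider than the 0.34 of the controls. The 2 arrays of MetS animal 1 read 9.92 and 9.81 and those of control 1 read 8.37 and 8.34, so that the arrays of an animal differed far less than the groups. Of all 14497 genes, 2 had a wider higher difference, the interferon-induced gene Ifit1 and Ly6al. In both the groups overlapped. The set was chosen by the difference of Them5, so this high rank follows from the choice.

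Them4 (probe 10817208) is the gene next to Them5 on rat chromosome 2. It read 8.44, 8.27 and 8.20 in MetS animals 1 to 3 and 8.17, 7.75, 7.74 and 8.18 in controls 1 to 4. The groups did not overlap, but the lowest MetS animal was only 0.02 above the highest control, and the low controls were controls 2 and 3. The means were 8.30 ± 0.12 (SD, n = 3) and 7.96 ± 0.25 (SD, n = 4), a difference of 0.34 (SE 0.14) or 1.27-fold. The first array of control 1, at 8.27, reached into the MetS range, and its second read 8.06. Controls 2 and 3 were also the animals with the lowest SD over all probes. Without them the Them4 difference was 0.13 (SE 0.09), and with the SD of each animal as a covariate it was -0.02 (SE 0.08). Under the same settings the Them5 difference was 1.36 (SE 0.34) and 1.48 (SE 0.36). The SD itself ran higher in MetS (1.88 to 1.93) than in controls (1.76 to 1.88). For any gene this covariate can therefore take up part of a group difference. Controls 2 and 3 had the lowest Them4 values, so leaving them out narrows the Them4 difference by itself.

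**Figure D1:**
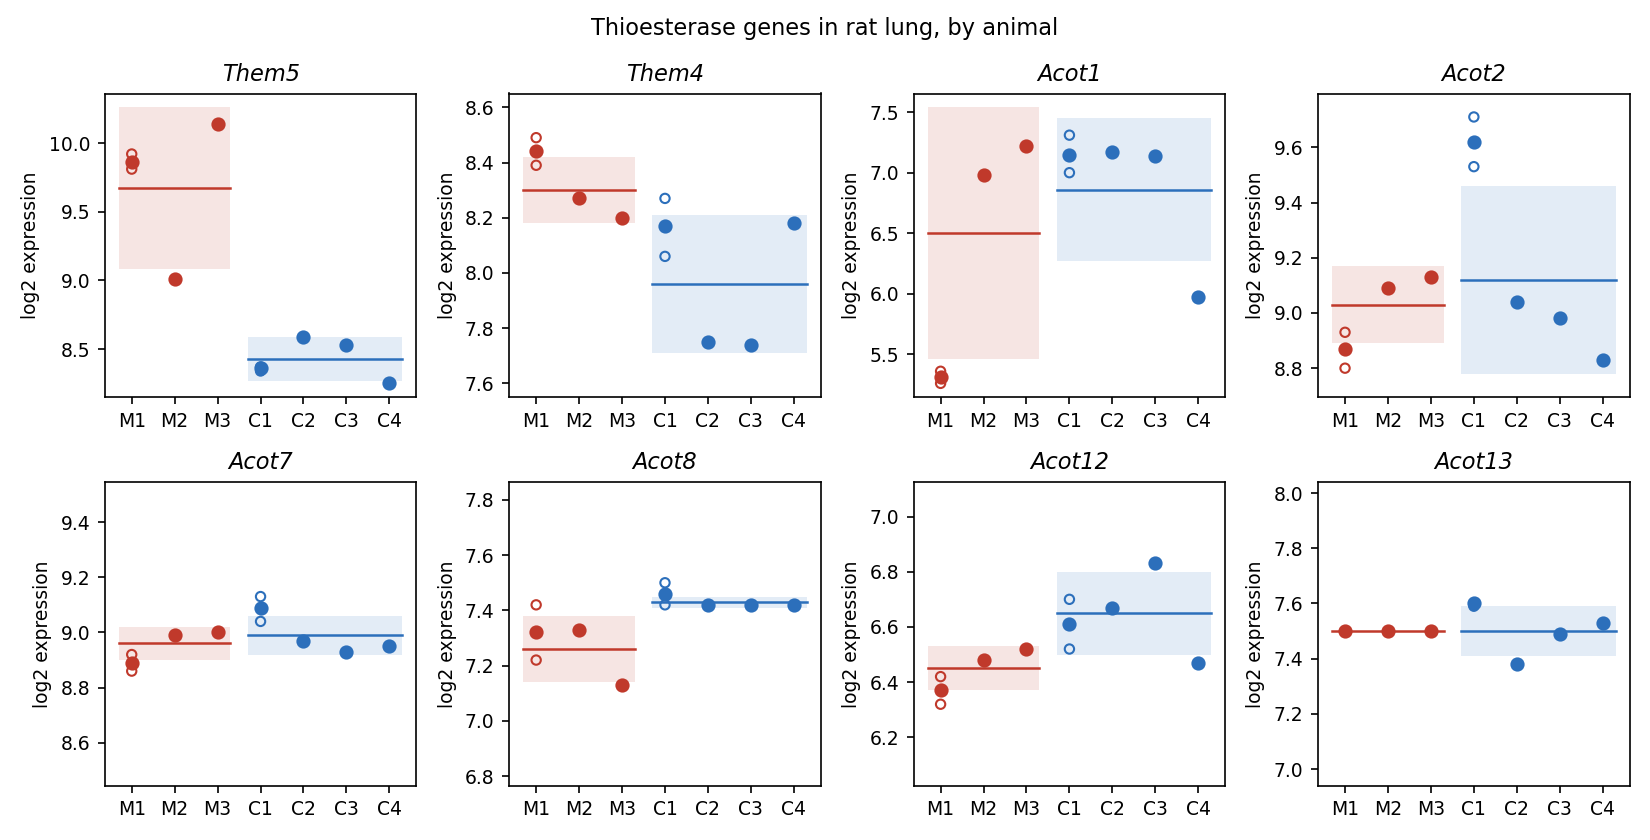
Log2 expression (vertical axes, a scale for each gene) of the 8 thioesterase genes in MetS animals (M1 to M3, red) and controls (C1 to C4, blue); filled points are animals, open points the 2 arrays of M1 and of C1, lines group means and bands ± 1 SD. Them5 is higher in all 3 MetS animals, and Acot1 is low in M1 and C4, at 5.31 and 5.97.

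The start regions of Them5 and Them4 are shown because the neighbours differ in sequence as well as in the size of their difference. Each is the RefSeq window of 300 bases on build GRCr8, 250 before to 50 after the transcript start, at chr2:184669572-184669871 for Them5 and chr2:184642353-184642652 for Them4, both on the plus strand. Capitals mark TGTTCT, 1 arm of the glucocorticoid response element, the GC box GGGCGG and the CCAAT box, each on either strand.
Them5: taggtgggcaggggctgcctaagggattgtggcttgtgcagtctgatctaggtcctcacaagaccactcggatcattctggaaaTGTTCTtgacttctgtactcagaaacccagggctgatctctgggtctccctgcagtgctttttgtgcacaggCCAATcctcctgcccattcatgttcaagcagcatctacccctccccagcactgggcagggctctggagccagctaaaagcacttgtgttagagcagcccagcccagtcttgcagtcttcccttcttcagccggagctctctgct
Them4: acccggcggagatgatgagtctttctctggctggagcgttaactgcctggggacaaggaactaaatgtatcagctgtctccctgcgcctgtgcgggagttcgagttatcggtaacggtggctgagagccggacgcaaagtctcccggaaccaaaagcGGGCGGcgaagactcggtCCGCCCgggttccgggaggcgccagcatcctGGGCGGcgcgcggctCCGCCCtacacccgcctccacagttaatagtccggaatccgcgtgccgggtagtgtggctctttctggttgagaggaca
The Them5 window holds 1 TGTTCT, 1 CCAAT and no GC box, with 2 CpG dinucleotides and 55% G and C. The Them4 window holds 4 GC boxes and neither of the other motifs, with 29 CpG and 62.3% G and C, where the median of all 33469 windows of this length is 7 CpG and 51.7%. Of all windows 20.7% hold TGTTCT, 33.1% the GC box and 37.5% CCAAT. Neither window holds AGGTCA (1 arm of the PPAR element, shared with other nuclear receptors, in 16.2% of windows) or TATAAA (14.2%). Neither holds the full PPAR-type repeat, 2 copies of AGGTCA with 1 base between (0.0538%), or the full glucocorticoid element, AGAACA and TGTTCT with 3 bases between (0.0149%).

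The other measured genes around Them5 had differences between -0.41 and 0.11. Spopfm2l2 read 5.26, 6.25 and 6.11 in MetS animals 1 to 3 and between 5.95 and 6.62 in controls (difference -0.41, SE 0.26). S100a10, a calcium-binding family member farther off with 76 annotated genes between, differed by 0.11 (SE 0.15). On the other side Lingo4 differed by -0.07 (SE 0.10), Tdrkh, a gene of small RNA biogenesis, by 0.06 (SE 0.09) and Oaz3, an antizyme, by -0.19 (SE 0.12). In these 5 genes the groups overlapped.

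**Figure D2:**
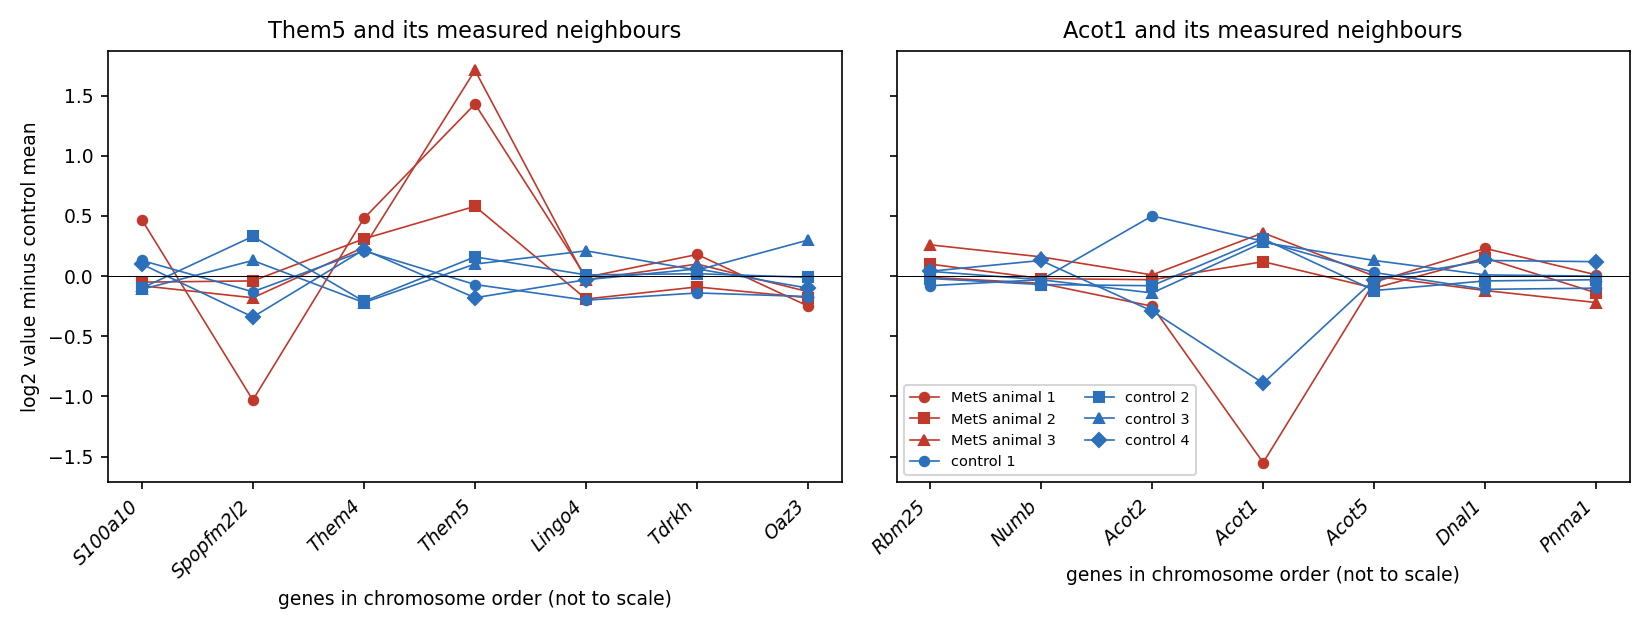
Log2 value minus the control mean (vertical axis) of Them5, Acot1 and the 3 nearest measured genes on each side in chromosome order (horizontal axis, not to scale), 1 line per animal. In the left panel the MetS animals stand apart at Them5 and, by 0.02 at the nearest, at Them4; in the right panel MetS animal 1 and control 4 are low at Acot1 but not at Acot5.

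The genes with values most like those of Them5 were sought by the root mean square distance between deviations from the control mean over the 7 animals, among 11997 other genes. A gene with no deviation at all would lie at 0.87. The nearest were the histocompatibility gene RT1-N2 at 0.43, the ubiquitin ligase gene G2e3 at 0.44, Retnla, a secreted resistin-like protein, at 0.44, the glucocorticoid receptor co-chaperone Fkbp5 at 0.46 and Fam107a at 0.51. G2e3 read 10.10, 8.86 and 9.69 in MetS animals 1 to 3 and between 8.63 and 9.13 in controls. Retnla read 12.17, 10.47 and 11.72 and between 10.24 and 11.11. In all 5, as in Them5, MetS animal 2 was the lowest of the MetS animals, and in G2e3, Retnla and Fam107a it lay within the controls. The search picked genes for closeness to Them5 in these same animals, so a shared pattern follows from the choice.

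Acot2 (probe 10885851), the mitochondrial long-chain thioesterase, read 8.87, 9.09 and 9.13 in MetS animals 1 to 3 and 9.62, 9.04, 8.98 and 8.83 in controls 1 to 4. Control 1 stood apart, with its 2 arrays at 9.71 and 9.53, and the other 6 animals lay within 8.83 and 9.13. The means were 9.03 ± 0.14 (SD, n = 3) and 9.12 ± 0.34 (SD, n = 4), a difference of -0.09 (SE 0.19). Control 1 also had the highest mean of the heart muscle markers, carried by 5 of the 7, with Myh6, the cardiac myosin heavy chain, at 11.13 against 6.92 to 7.34 in controls 2 to 4. The atrial markers Myl7 and Nppa did not follow, at 7.71 and 6.76 in control 1 against up to 8.23 and 7.06 in other animals. MetS animal 1 had the next highest mean, with Myh6 at 9.61 but Myl7 at 7.38, the lowest of the 7 animals, and did not have a high Acot2. Without control 1 the Acot2 difference turned to 0.08 (SE 0.10). Without MetS animal 1 and control 1, a setting added after seeing the data, it was 0.16 (SE 0.09), with groups that did not overlap. In that setting 13.9% of all probes were higher without overlap, against 4.88% with all 7 animals. The part of heart muscle in Acot2 was not tested.

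Acot1 (probe 10885857), the cytosolic long-chain enzyme next to Acot2 on chromosome 6, read 5.31, 6.98 and 7.22 in MetS animals 1 to 3 and 7.15, 7.17, 7.14 and 5.97 in controls 1 to 4. It was low in 1 animal of each group, while the other 5 lay between 6.98 and 7.22. Both arrays of MetS animal 1 were low, at 5.36 and 5.26. The means were 6.50 ± 1.04 (SD, n = 3) and 6.86 ± 0.59 (SD, n = 4), a difference of -0.36 (SE 0.51), less than the spread within either group. Without MetS animal 1 the difference turned to 0.24 (SE 0.37), without control 4 it was -0.65 (SE 0.47), without MetS animal 2 it was -0.59 (SE 0.59) and without MetS animal 3 it was -0.72 (SE 0.55). Without MetS animal 1 and control 4 together, a setting added after seeing the data, it was -0.06 (SE 0.10). With the SD of each animal as a covariate it was 0.63 (SE 0.57). Both low values lie under 6.48, the 25th percentile of probe means.

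The cluster gene Acot5 read between 6.60 and 6.70 in MetS and between 6.58 and 6.83 in controls, with MetS animal 1 at 6.65 and control 4 at 6.67, so the low values of these animals were not seen there. The probe shared by Acot4 and Acot3 read between 7.20 and 7.37 over all 7 animals, with a difference of 0.02 (SE 0.06). Beyond the cluster, Numb, Rbm25, Dnal1 and Pnma1 differed by 0.02, 0.12, 0.09 and -0.11, with overlapping groups. The genes of the cluster are similar in sequence, and a share of signal from a paralog in any of these probes was not tested. By the distance used for Them5, and chosen after its values were seen, the genes nearest to Acot1 were Or13n4, Car1, Cldn8, Ly49s6 and Tas2r140, at 0.43 to 0.46 from a pattern that itself lies 0.72 from no deviation.

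**Figure D3:**
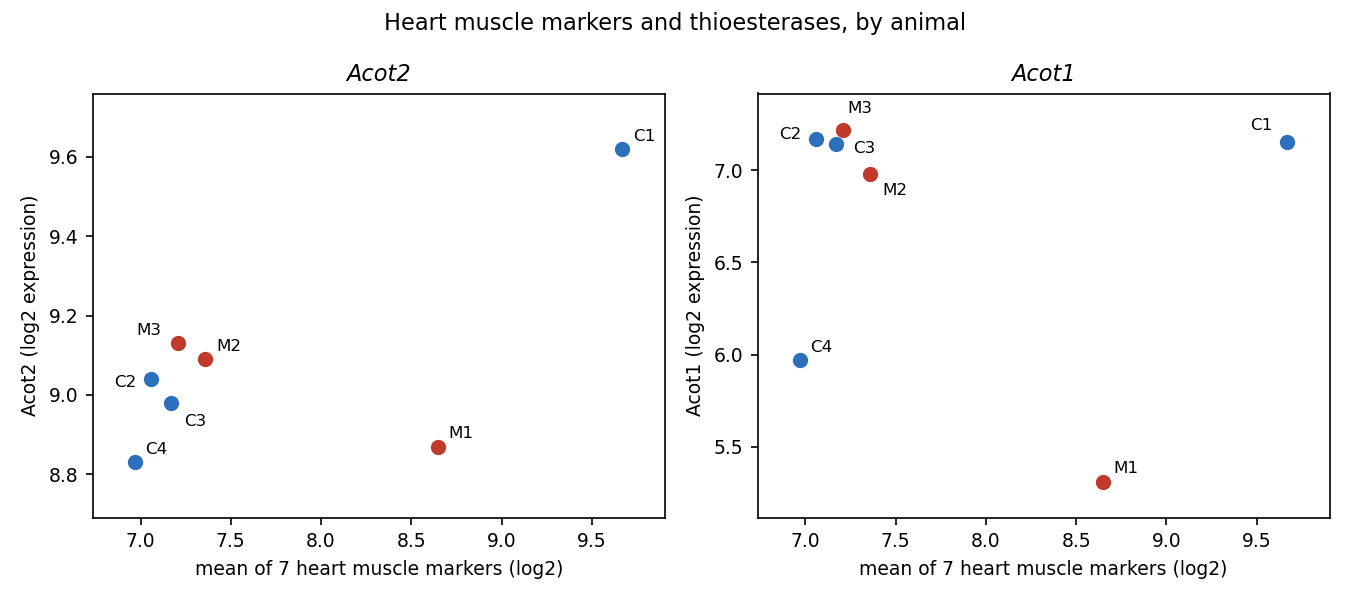
Log2 expression of Acot2 (left) and Acot1 (right) against the mean log2 value of 7 heart muscle markers (horizontal axes), 1 point per animal, MetS red (M1 to M3) and controls blue (C1 to C4). C1 is highest in Acot2 and in the marker mean, and M1, next in the marker mean, is low in Acot2 at 8.87 and lowest in Acot1 at 5.31.

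The start regions of the paired genes Acot1 and Acot2 are shown because different animals stood apart in these adjacent paralogs, known for a shared regulator. Any link of the sequences to the values was not tested. They come from the same RefSeq table, at chr6:109367024-109367323 and chr6:109342590-109342889, both on the plus strand of GRCr8, with capitals as above.
Acot1: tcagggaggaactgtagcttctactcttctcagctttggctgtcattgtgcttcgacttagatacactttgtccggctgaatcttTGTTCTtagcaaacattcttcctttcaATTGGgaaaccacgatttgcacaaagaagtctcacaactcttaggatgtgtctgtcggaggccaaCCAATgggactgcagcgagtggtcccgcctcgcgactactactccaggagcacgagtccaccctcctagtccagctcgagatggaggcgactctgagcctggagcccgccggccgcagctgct
Acot2: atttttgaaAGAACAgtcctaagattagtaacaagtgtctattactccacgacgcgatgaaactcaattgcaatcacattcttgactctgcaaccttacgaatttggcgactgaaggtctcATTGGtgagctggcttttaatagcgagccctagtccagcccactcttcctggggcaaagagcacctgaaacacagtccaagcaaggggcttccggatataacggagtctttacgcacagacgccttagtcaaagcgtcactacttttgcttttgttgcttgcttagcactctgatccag
Acot1 holds 1 TGTTCT and 2 CCAAT boxes, and Acot2 holds 1 of each. Neither holds the GC box, AGGTCA or the full PPAR-type repeat in this window. They have 14 and 11 CpG. All 8 genes were matched to the table, which gives 2 windows for Acot7. Among the 9 windows 4 hold TGTTCT, those of Them5, Acot1, Acot2 and Acot12, and 5 hold the GC box, those of Them4, Acot8, Acot12, Acot13 and 1 of the windows of Acot7.

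Acot7 (probe 10874298), a cytosolic enzyme most abundant in brain, varied little: 8.89, 8.99 and 9.0 in MetS animals 1 to 3 and 9.09, 8.97, 8.93 and 8.95 in controls 1 to 4. The groups overlapped, with a difference of -0.02 (SE 0.07). Acot13 (probe 10795108), also called Them2 and found at mitochondria, read 7.50 in each MetS animal and 7.60, 7.38, 7.49 and 7.53 in controls 1 to 4, a difference of 0.00 (SE 0.07). The same value stood on 3 of its arrays to the last deposited digit, all of them from MetS animals 1 and 3.

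Acot12 (probe 10812438), a cytosolic acetyl-CoA hydrolase of liver, read 6.37, 6.48 and 6.52 in MetS animals 1 to 3 and 6.61, 6.67, 6.83 and 6.47 in controls 1 to 4. The MetS values were low and control 4 lay among them, so the groups overlapped. The means were 6.45 ± 0.08 (SD, n = 3) and 6.65 ± 0.15 (SD, n = 4), a difference of -0.19 (SE 0.09). The probe is dim, close to the 25th percentile of 6.48. The difference was 0.02 (SE 0.08) with the SD of each animal as a covariate, -0.04 (SE 0.06) after the arrays were quantile normalized again and -0.09 (SE 0.08) without controls 2 and 3.

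Acot8 (probe 10851656), the peroxisomal thioesterase, read 7.32, 7.33 and 7.13 in MetS animals 1 to 3 and 7.46, 7.42, 7.42 and 7.42 in controls 1 to 4. The MetS animals lay below all controls, with means of 7.26 ± 0.12 (SD, n = 3) and 7.43 ± 0.02 (SD, n = 4) and a difference of -0.17 (SE 0.07), or 1.13-fold lower. The narrow control values rest on a tie: 5 of the 9 arrays hold the same value to the last deposited digit, 1 array of control 1, those of controls 2 to 4 and the first array of MetS animal 1. The second array of MetS animal 1 read 7.22. On the first arrays alone the groups therefore touched and did not separate. Over all probes 865, or 3%, hold an identical value on 5 or more arrays. Without MetS animal 3 the difference was -0.10 (SE 0.06).

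Among the 8 genes, 2 were higher without overlap of the groups, Them5 and Them4, and 1 was lower, Acot8. The set was chosen by the difference of Them5, so the place of Them5 in these counts follows from the choice. Over all 28826 probes, groups did not overlap for 4.88% in the higher and 6.84% in the lower direction. With limma and Benjamini-Hochberg adjustment over all probes, 0% passed at an adjusted p under 0.05 in either direction, and 3.82% were higher and 9.91% lower at an unadjusted p under 0.05. That count, 3959 probes in both directions, was 6180 without control 4. It fell to 2290 when MetS animal 1 was left out, to 2168 when MetS animal 2 was, and to 2386 and 2321 when control 2 or control 3 was. Counting each array alone, Them5 was the gene of the 8 whose MetS and control arrays did not overlap. Of all probes 2.54% were higher and 5.06% lower without overlap when counted so.

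**Figure D4:**
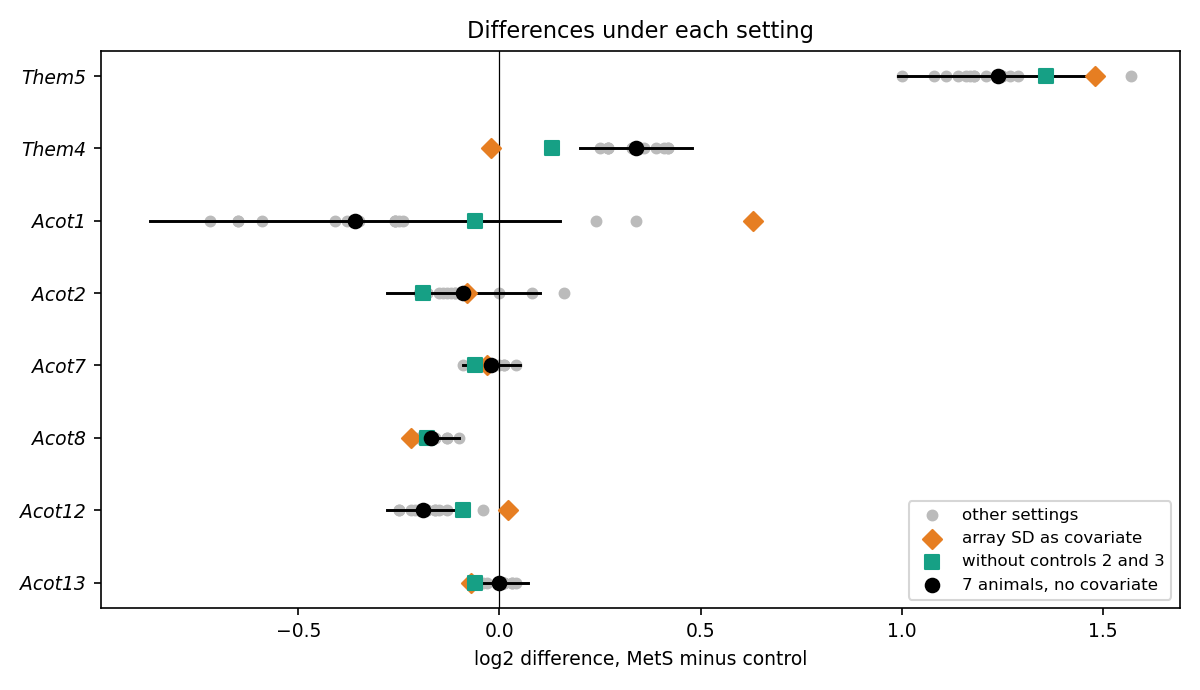
Log2 difference, MetS minus control (horizontal axis), of each of the 8 genes in the fit of 7 animals (black, bar ± 1 SE), with the SD of each animal as a covariate (orange), without controls 2 and 3 (green) and under the other settings (grey). Them5, by whose difference the set was chosen, stays between 1.00 and 1.57, while Acot1 spans -0.72 to 0.63.

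Genes that make, bind, carry or use acyl-CoA were taken as 7 lists, with 86 of 103 genes measured. The groups of 5 genes did not overlap in the higher and of 2 in the lower direction, against 4.88% and 6.84% of all probes. Among all 14497 genes these counts were 808 and 873. With limma 0 of the 86 passed at an adjusted p under 0.05, against 0% of all probes. At an unadjusted p under 0.05 (limma) 3 were higher and 3 lower, against 3.82% and 9.91% of all probes. Among all 14497 genes 561 were higher and 1329 lower at that threshold. The median difference was 0.06 over the lists and 0.04 over all 14497 genes.

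Of 9 other thioesterases 4 were higher and 5 lower, with a median of -0.05 and overlapping groups throughout. Acot9, a mitochondrial relative, read 9.53, 9.18 and 9.13 in MetS and between 8.79 and 9.18 in controls (difference 0.24, SE 0.13). Of 19 synthetases and fatty acid transporters 14 were higher and 5 lower, with a median of 0.09. Acss3, a mitochondrial short-chain synthetase, read 9.79, 9.70 and 9.86 in MetS and between 9.48 and 9.64 in controls, a difference of 0.20 (SE 0.07). Acsm3, a medium-chain synthetase, read between 5.39 and 5.57 in MetS and between 5.58 and 5.93 in controls (difference -0.24, SE 0.10). Its groups, like those of Acss3, did not overlap, but the gap was only 0.01. All its values lie under 6.48, the 25th percentile of probe means. Acsl1, the main long-chain synthetase of heart and fat, read between 8.64 and 8.77 in MetS and between 7.87 and 9.18 in controls, within the spread of the controls.

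Of 13 acyl-CoA and fatty acid binding genes 7 were higher and 6 lower, with a median of 0.01. Dbi, the acyl-CoA binding protein, differed by 0.09 (SE 0.12), and the peroxisomal Acbd5 by 0.11 (SE 0.07) without overlap. Fabp2, the intestinal fatty acid binding protein, read 4.84, 4.93 and 4.97 in MetS and between 5.0 and 5.70 in controls, a difference of -0.43 (SE 0.15) at a dim signal. The heart form Fabp3, named after its values were seen, followed the heart muscle markers, at 8.94 in MetS animal 1 and 10.18 in control 1 but between 6.88 and 7.31 in the other 5 animals.

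Of 7 carnitine shuttle genes 5 were higher and 2 lower, with a median of 0.04. Cpt1a, which commits long-chain acyl-CoA to mitochondrial oxidation, read 9.81, 10.47 and 10.27 in MetS animals 1 to 3 and 10.43, 10.46, 10.38 and 10.02 in controls 1 to 4, lowest in the same animals as Acot1. Of 11 genes of cardiolipin synthesis and remodelling 8 were higher and 3 lower, with a median of 0.06. Crls1, cardiolipin synthase, read 8.93, 8.98 and 8.91 in MetS and 8.88, 8.85, 8.40 and 8.88 in controls 1 to 4, without overlap but with most of the difference of 0.19 (SE 0.13) in control 3. Hadha, a trifunctional protein subunit that also acts on cardiolipin, differed by 0.06 (SE 0.10). Of 11 peroxisomal oxidation genes 8 were higher and 3 lower, with a median of 0.06 and no gene without overlap.

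Of 24 PPAR receptors and targets 12 were higher and 12 lower, with a median of 0.00. Ppara differed by 0.05 (SE 0.14) and Pparg by 0.10 (SE 0.22), and Ppard, without overlap, by 0.10 (SE 0.06). The coactivator gene Ppargc1a, a driver of mitochondrial biogenesis, read 8.84, 8.69 and 8.70 in MetS and 8.60, 8.28, 8.24 and 8.53 in controls 1 to 4, a difference of 0.33 (SE 0.11) without overlap and with the lowest values in controls 2 and 3, as in Them4. Pdk4, a PPAR target that restrains glucose oxidation, read 8.84, 9.69 and 9.73 in MetS and between 8.14 and 9.95 in controls.

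**Figure D5:**
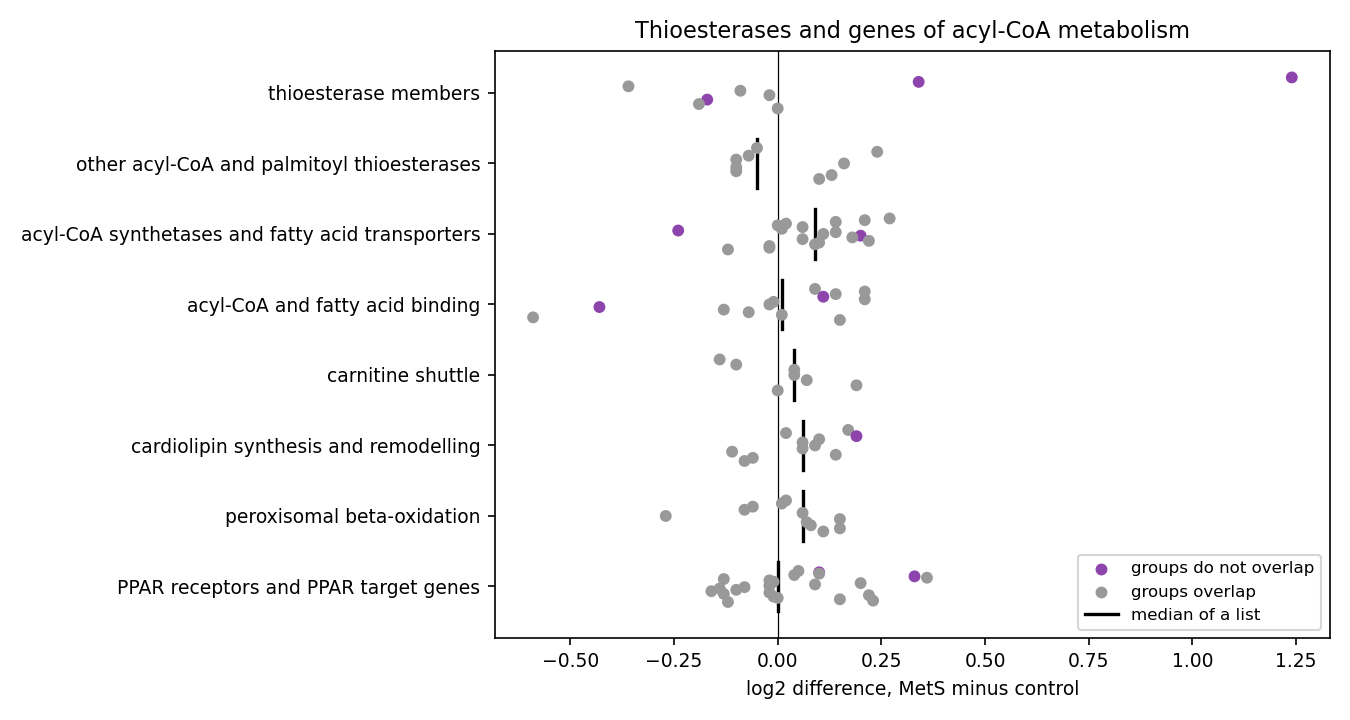
Log2 difference, MetS minus control (horizontal axis), of the 8 thioesterase genes and of each measured gene of 7 lists (rows), with black lines for list medians and purple points for genes whose groups do not overlap. Them5, by whose difference the set was chosen, lies at 1.24. The widest values of the list genes are -0.59 for Fabp7 and 0.36 for Pdk4.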

How the data were processed

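The authors deposited log2 expression values, 1 column per array. Per the submitters' processing notes the tools were R 2.11.0, RMA and limma, their roles unstated. A genome build for the probes is not given there or in the labels. Per the labels' protocols, lung RNA with an integrity number of at least 6 was used, 50 ng per array. The 2 arrays of an animal were averaged first. Of 28826 probes, 15209 had 1 symbol, 306 several and 13311 none; 15204 of the probes with 1 symbol were matched to RefSeq (GRCr8), of which names, gene order and start regions were used.

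Differences and moderated standard errors came from lmFit and eBayes (limma 3.58.1, R 4.3.3) over all probes, MetS minus control, with Benjamini-Hochberg adjustment; the test was checked on simulated data. Tables and figures used Python 3.11.15, pandas 2.3.3 and matplotlib 3.10.9. The genes and lists were chosen with earlier results of these data known. The text names all 8 genes, 3 measured neighbours on each side of Them5 and Acot1, the 5 genes nearest to Them5 (mean above the 25th percentile), fixed list genes where measured, and the up to 3 widest of each list without overlap. All 12 marker lists are described. Alternatives were other uses of the arrays, normalizations, covariates, filters, moderation and left-out animals.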

Additional observations from a re-analysis of the deposited data

Results flagged for a closer look

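In 58 genes, those named here and the measured heart muscle markers, the 4 controls were searched for an animal far from the rest, by the gap to its neighbour as a share of the range, and set against Dixon's critical value. Chance gives about 1 in 20 groups where genes are independent and not chosen by their values, and 8 were found. These genes were chosen with earlier results known and several vary together, so the 8 cannot be read against that rate. For Acot1 control 4 lay low at 5.97 (share 0.977). For Acot8 control 1 lay high at 7.46 (share 1), which follows from the identical value of the other controls. For Crls1 control 3 lay low at 8.40 (share 0.939). In the other 5 control 1 lay high: Fabp3 at 10.18 (share 0.997), and the heart muscle markers Myh6 at 11.13 (0.9), Tnni3 at 9.97 (0.964), Tnnt2 at 11.26 (0.968) and Actc1 at 12.06 (0.955).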

How the results depend on the processing

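Over 18 alternatives the Them5 difference stayed positive, between 1.00 without MetS animal 3 and 1.57 without MetS animal 2. These are also its lowest and highest values with 1 animal left out. The set was chosen by this difference. Where the groups did not overlap, as for Them5, Them4 and Acot8, leaving out animals could not turn the direction. The direction turned in 1 of 18 for Them4 and Acot12, 3 for Acot1 and Acot7, 2 for Acot2, 6 for Acot13 and 0 for Acot8; the cause was not tested. The number of the 8 genes higher without overlap fell from 2 to 1 (Them5) on the first arrays and over all 9 arrays, and was 4 without MetS 1 and control 1, where Acot2 and Acot7 joined (added after seeing the data) and the share of all probes rose from 4.88% to 13.9%. On the first arrays 4.15% of all probes were higher without overlap, and over all 9 arrays 2.54%. With 1 animal left out the number of the 8 genes was 2 to 2, and the share of all probes lay between 5.62% and 12.3%. Them5, by whose difference the set was chosen, is in each of these counts. The number lower was 0 on the first arrays, over all 9 arrays and after quantile normalization, and 2 without controls 2 and 3 (with Acot13) or without MetS 1 and control 4 (with Acot12, added after seeing the data). With 1 animal left out it ranged from 1 to 2, the latter without control 4 (with Acot12). The share of all probes was 9.3%, 18.5% and 16.4% in these 3 settings, against 6.84%. It was 6.22% on the first arrays, 5.06% over all 9 arrays and 5.25% after quantile normalization. At an adjusted p under 0.05 no probe and no list gene passed in the fits other than the replicate block, and with 1 animal left out both counts were 0 to 0. At 0.10, tried on the fit of all 7 animals, the counts were 0, and without control 4 the smallest adjusted p (limma) was 0.0522. With the replicate number as a block, in which control 4 has no partner and adds nothing, 2017 probes and 2 list genes passed, Fabp2 and Fabp7. The deviations of animals with the same number had correlations of 0.271, -0.118 and 0.339 for numbers 1 to 3. For number 1 each animal correlated best with the other, for number 2 neither did, and for number 3 only the control did. With so few animals these values cannot decide whether the numbers pair them. Each of the 8 genes had 1 probe, so averaging probes changed nothing. The table gives no signal over background, so dim values such as those of Acot1 and Acot12 have no detection limit.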
